A study of Homo sapiens with 192 samples.

Results

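Deep and shallow HAP1 nuclei were compared within the wells numbered 1 to 36 and 49 to 72 of 2 plates. These 120 wells lie outside the other 72 wells, called paired wells here, which the choice of members left out. The depth of a nucleus was the sum of its counts over all features. Nuclei with 2000 or more read pairs in features were called deep and those with fewer shallow, except for 28 wells with 20 to 315 read pairs, so both classes were selected on the measured totals. This gave 41 deep nuclei, 22 in plate 1 and 19 in plate 2, and 51 shallow nuclei, 26 and 25. The 28 wells, called lowest wells here, entered no comparison between classes.

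HAP1 cells are a human line, near-haploid, that goes back to a chronic myeloid leukemia and grows attached to the dish. Cells labeled with the CASB complex, which ties a DNA barcode to glycoproteins of the membrane, were mixed with as many unlabeled cells. The mixture was tagmented in bulk and sorted into 96 wells of each of 2 plates, for a plate-based single-nucleus ATAC sequencing test of the labeling. Neither class had a treatment, both came from the same mixture, and whether a nucleus was labeled is not known here. The deposited table gives the read pairs of each nucleus in 80971 features of 1001 bp, which were called on all nuclei of both plates together, on genome build hg38. Each plate counts as 1 sample because no separate cultures are named. Nuclei of 1 pool are not replicates, so no test was made, and the main differences between classes are set beside the difference between plates within a class. Values in brackets after a share are its 95% interval by the exact method of Clopper and Pearson. They hold counting error alone, since read pairs without molecular identifiers are not independent molecules.

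In ATAC sequencing, the Tn5 transposase inserts adapters where DNA is not wrapped in nucleosomes. Promoters, above all those rich in CG dinucleotides, are open in most cell types, whereas open sites in introns and between genes are mostly enhancers and insulators that vary more between cells. A near-haploid nucleus holds few copies of each site, so it gives only a sparse sample of its open sites.

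The features differed in base composition by their place. Promoter features, those that contain an annotated transcription start, were 17.2% of features and had a median GC content of 60.1%. Intronic features (47.3% of features) and intergenic features (32.1%) had medians of 39.9% and 39.7%. To show this difference, the 30 bases with most CG dinucleotides are printed for 3 of the 5 features seen in most of the thinned nuclei, with CG in capitals. The first lies in the feature with the starts of ODR4 and TPR (chr1:186375134-186375163), the second in a feature with no annotated gene (chr3:93470230-93470259), and the third in an intron of the noncoding gene ENSG00000286085 (chrX:145715535-145715564), all on the plus strand of hg38.
ODR4 and TPR promoter: ctCGctCGgtggctCGCGCGCGccCGccCG
intergenic, chromosome 3: aaggaaataccttCGtataataattagaCG
intronic, chromosome X: tggctggctagttccCGaagccacaagcCG
The promoter feature held 78 CG dinucleotides in its 1001 bases, against 8 in the intergenic and 11 in the intronic feature.

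The totals of the deep nuclei lay between 2029 and 7767 read pairs in plate 1 (median 4244.5) and between 2055 and 7150 in plate 2 (median 3183). The shallow nuclei had up to 1838 (median 1049) in plate 1 and 361 to 1748 (median 966) in plate 2. The values nearest the limit of 2000 were 1730, 1748 and 1838 read pairs below it, with promoter shares of 36.1%, 28.5% and 31.7%. Above it they were 2029, 2054 and 2055, with 31.3%, 31.9% and 32%. At the lower limit of the shallow class, the nearest totals outside were 288, 312 and 315 (20.1%, 29.5% and 31.7%), and those inside included 361 and 378 (34.9% and 27.2%). The classes were not spread evenly over the plates. In plate 1, wells 1 to 12 held 7 deep and 3 shallow nuclei, and wells 13 to 24 held 2 and 7. In plate 2, wells 1 to 12 held 2 deep and 4 shallow nuclei, and wells 13 to 24 held 6 and 3.

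Nuclei outside the paired wells shared features with other wells of their plate by well number. The other well could be a paired well too. Over features seen in exactly 2 of all nuclei, a shallow nucleus shared 3.75 features with the well of the next number and 2.55 with the well at the same position of the next group of 12. It shared 0.100 with a well elsewhere on the plate and 0.104 with a well elsewhere on the other plate. For deep nuclei the same means per pair were 9.42, 8.38, 0.368 and 0.427. The well that shared most with a given nucleus was in its group of 12 or at its position for 40 of 41 deep and 50 of 51 shallow nuclei. That 1 partner held 25% or more of the two-nucleus features of 2 deep and 8 shallow nuclei, and of 18 of the 28 lowest wells. The median number of two-nucleus features was highest in deep nuclei and lowest in the lowest wells. A share of 25% thus took fewer shared features at lower depth, so these counts cannot compare the classes. Without those 2 and 8 nuclei, the difference between the classes was 4.56 percentage points for promoters, -2.61 for introns and -2.01 between genes, in place of the 4.47, -2.33 and -2.14 described next. The table holds no cell barcodes beyond the wells, and the part of this sharing in each result was not tested.

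**Figure D1:**
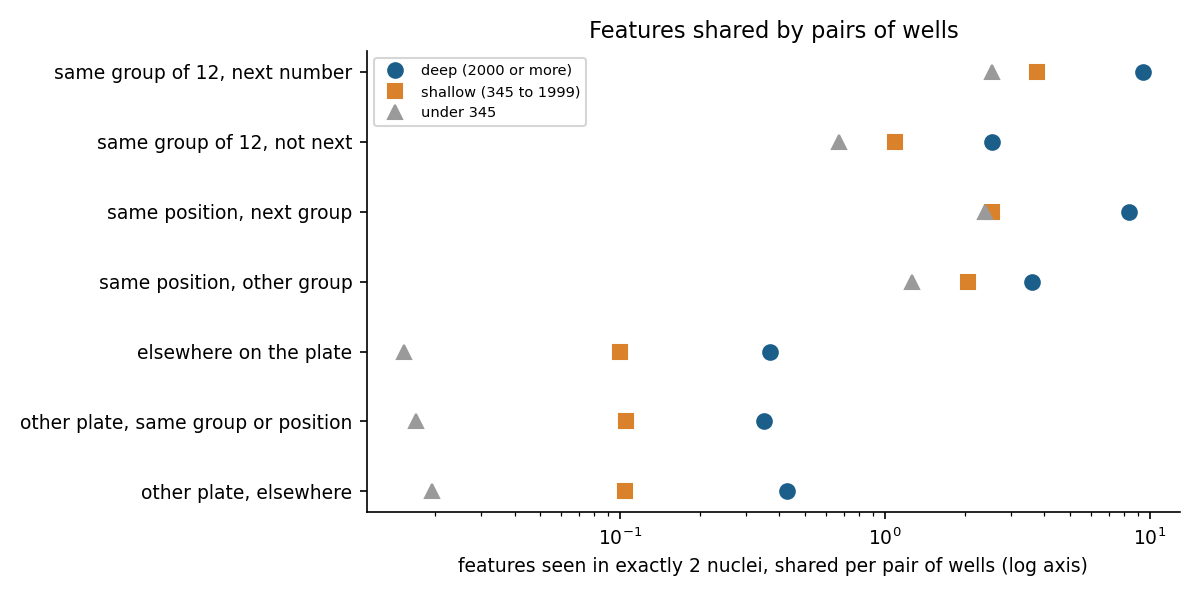
Mean number of features seen in exactly 2 of all nuclei that a well outside the paired wells shared with another well (log axis), by the place of the other well and by the depth class of the first. In each of the 3 classes, wells of the same group of 12 numbers or the same position lie above wells elsewhere on the plate, which lie near those of the other plate (0.368 and 0.427 in deep, 0.100 and 0.104 in shallow nuclei).

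Deep nuclei had a larger share of their read pairs in promoters than shallow nuclei in both plates. The promoter share per nucleus in plate 1 ran from 26.8% through a median of 31.9% to 40.8% in deep nuclei and from 23.3% through 27.8% to 37.3% in shallow nuclei. In plate 2 it ran from 28.3% through 33.6% to 41.8% and from 24.6% through 30.7% to 38.9%. The ranges overlapped over most of their length, although 20 of 22 deep nuclei in plate 1 and 16 of 19 in plate 2 lay above the median of the shallow nuclei of their plate. Pooled over nuclei, the share was 33.8% (33.5 to 34.1) against 28.8% (28.3 to 29.4) in plate 1, a difference of 4.94 percentage points. In plate 2 it was 35.3% (34.9 to 35.6) against 31% (30.5 to 31.6), a difference of 4.26 points. Plate 2 was above plate 1 by 1.51 points in deep and by 2.19 points in shallow nuclei, less than the difference between the classes in either plate.

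**Figure D2:**
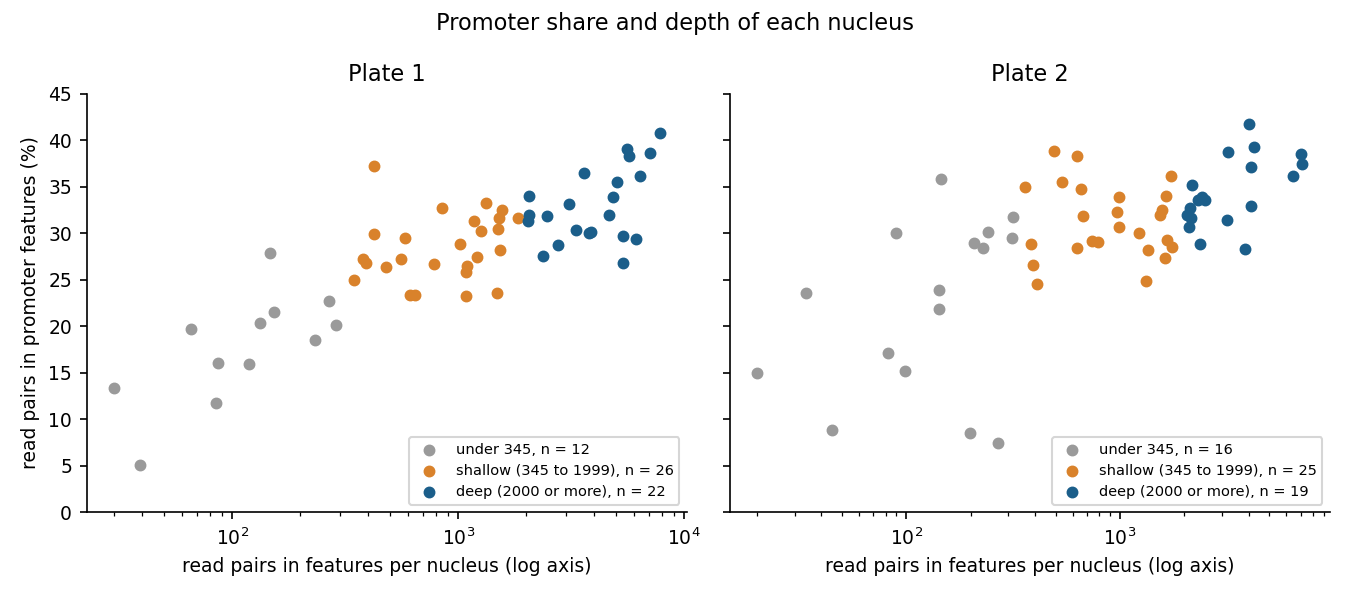
Share of read pairs in promoter features of each nucleus against its read pairs in features (log axis), for plate 1 (left) and plate 2 (right), colored by depth class. Deep nuclei lie between 26.8% and 41.8%, shallow nuclei between 23.3% and 38.9%, and the lowest wells reach down to 5.13%.

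The share was higher in nuclei with larger totals among deep nuclei of both plates. In plate 1 the pooled promoter share was 28.7% in shallow nuclei below 600 read pairs, 27% from 600 to below 1000 and 29.1% from 1000. In deep nuclei of plate 1 it was 30.8% below 3000 read pairs, 32.3% from 3000 to below 5000 and 35.3% from 5000. In plate 2 the same bins gave 32%, 32% and 30.4% in shallow and 32.5%, 35.8% and 37.4% in deep nuclei, so that within the shallow range the share was not higher at larger totals. Spearman's rho between total and promoter share was 0.40 over the 22 deep and 0.35 over the 26 shallow nuclei of plate 1, and 0.61 over the 19 deep and -0.06 over the 25 shallow nuclei of plate 2. These coefficients are descriptions over nuclei that share a plate, and the total enters the share as its denominator.

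The shares were also compared with 600 read pairs in each nucleus. All 41 deep and 37 of the 51 shallow nuclei had 600 or more read pairs and were thinned to 600 at random. Such thinning does not change the expected share of a nucleus, so it cannot show whether depth set the share. It gives each nucleus the same weight and leaves out 14 shallow nuclei. The promoter share was then 33.6% in deep and 29.8% in shallow nuclei, a difference of 3.78 points. In plate 1 the difference was 4.86 points, beside differences between plates of 0.598 in deep and 2.65 in shallow nuclei. In plate 2 it was 2.81 points and thus little larger than the 2.65 points between the shallow nuclei of the plates. When each detected feature was counted once in these thinned nuclei, the differences were 3.93 points in plate 1 and 2.27 in plate 2, and the latter was below the 2.3 points between the plates in shallow nuclei.

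CpG-rich promoters accounted for most of the difference. Promoter features with a GC content of 50% or more and an observed to expected CpG ratio of 0.6 or more held 27.6% (27.4 to 27.8) of the read pairs of deep and 23.5% (23.1 to 23.8) of those of shallow nuclei. The difference was 4.57 points in plate 1 and 3.82 in plate 2, against 1.13 and 1.88 between plates. After thinning it was 4.38 and 2.18 points, and in plate 2 this was below the 2.26 points between the shallow nuclei of the plates. Other promoters held 6.83% and 6.46%, and their differences of 0.365 and 0.437 points were about as large as those between plates, 0.377 in deep and 0.305 in shallow nuclei. CpG-rich features without a transcription start, 2.22% of features, held 3.56% and 3.07% of the read pairs. The mean GC content of the features, weighted by read pairs, had a median over nuclei of 47.5% in deep and 46.7% in shallow nuclei of plate 1, and of 47.8% and 47.6% in plate 2. GC content thus moved with the promoter share in plate 1, and its part in the difference was not tested.

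The read pairs that deep nuclei lacked in relation to shallow nuclei were intronic and intergenic. Intronic features held 37.2% (37.0 to 37.4) of the read pairs of deep and 39.5% (39.1 to 40.0) of those of shallow nuclei. The difference was -2.87 points in plate 1 and -1.94 in plate 2, and in the shallow nuclei the plates differed by nearly as much, -1.89 points. Intergenic features held 25.4% (25.2 to 25.6) and 27.5% (27.1 to 27.9), with differences of -2.03 and -2.31 points, and here the plates differed by only -0.361 and -0.0818 points. After thinning, the intergenic differences were -2.02 and -1.23 points. Exonic features held 2.99% in both classes, and the differences of -0.0345 and -0.0156 points were smaller than those between plates, -0.196 and -0.215. Distance from transcription starts showed the same order. Features 10 to 100 kb from a start held 34% in deep and 37.0% in shallow nuclei, and those over 100 kb away 4.99% and 5.72%.

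**Figure D3:**
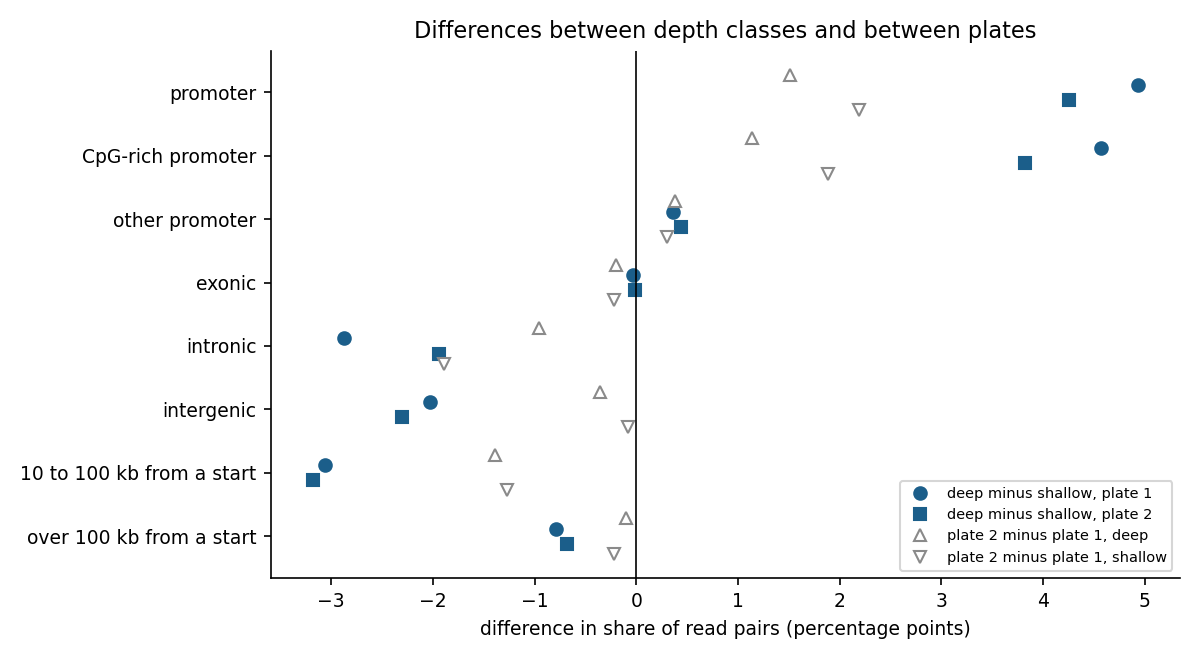
Difference in the share of read pairs (percentage points) for 8 kinds of features. Filled blue symbols are deep minus shallow nuclei in plate 1 (circles) and plate 2 (squares), and open gray triangles are plate 2 minus plate 1 within deep (up) and shallow (down) nuclei. For all promoters the blue symbols lie at 4.94 and 4.26 and the gray ones at 1.51 and 2.19, whereas for other promoters and exonic features they fall together.

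The promoter share was lower at lower totals in the remaining wells too. In the lowest wells, promoters held 19.7% (17.8 to 21.7) of 1647 read pairs in plate 1 and 23.9% (22.3 to 25.6) of 2571 in plate 2. In the paired wells the share was 28.5% (28.3 to 28.7) in 45 deep and 22.7% (22.2 to 23.1) in 26 shallow nuclei, each below its class outside the paired wells. Deep members held 33.7%, shallow members 10.4% and the paired wells 55.1% of all read pairs of the table. Since the features were called on all nuclei together, deep members contributed more to the choice of features than shallow members, and the paired wells most. How far this set the shares cannot be told apart from the nuclei themselves.

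To compare features of like recurrence, each feature was classed by the number of deep and shallow nuclei of the other plate in which it was seen. Among features seen in no nucleus of the other plate, promoters held 16.7% of the read pairs of deep and 12.8% of those of shallow nuclei. The values were 27.2% and 22.7% for features seen in 1 such nucleus, 40.3% and 36.8% for 2 to 4, and 58.6% and 53.9% for 5 to 9. In each of these 4 ranges the share was higher in deep nuclei in both plates. For features seen in 10 to 19 nuclei it was 71% and 69.2% in plate 1 but 68.6% and 71.5% in plate 2, so the order turned. Recurrent features themselves took similar shares of both classes. Features seen in 5 or more nuclei of the other plate held 15.8% of thinned read pairs in deep and 16% in shallow nuclei. The difference was 0.214 points in plate 1 and -0.0175 in plate 2. The plates differed by 5.27 points in deep and 5.50 in shallow nuclei. Each plate was scored on another set of features, however, so these plate differences are no measure to set the class differences beside.

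Motifs within 100 bases of the centre of each feature were searched on both strands, as a description of sequence. A feature could hold several motifs. The CRE motif TGACGTCA, which CREB and ATF factors bind, was in 1.50% of promoter features. Promoter features with it held 0.586% (0.550 to 0.625) of the read pairs of deep and 0.450% (0.394 to 0.513) of those of shallow nuclei. Their ratio of 1.30, 1.32 in plate 1 and 1.29 in plate 2, compares with 1.15 for all promoters. The AP-1 motif TGANTCA was in 3.48% of promoter features and 7.72% of other features. Outside promoters, features with it held 5.61% and 5.86% of the read pairs, and the intervals overlapped. Features with the CTCF motif outside promoters held 1.45% (1.39 to 1.51) and 1.40% (1.29 to 1.50). The CTCF factor binds insulators, and these intervals overlapped as well. The ETS motif CCGGAAGT was in 3.23% of promoter features, which held 1.18% and 1.02%.

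Gene groups were compared by the ratio of the share in deep to that in shallow nuclei, which for all promoters together was 1.15 with all read pairs and 1.13 after thinning. Histone genes had the highest ratio of the lists that held over 20 read pairs in all, both with all read pairs and after thinning. Replication-dependent histone genes, whose messages are made during DNA replication, had a ratio of 2.81, with 0.0953% (0.0809 to 0.111) of 162719 read pairs in deep nuclei and 0.0339% (0.0197 to 0.0542), 17 of 50188, in shallow nuclei. It was 3.17 in plate 1 and 2.63 in plate 2. After thinning it was 2.97 (4.09 and 2.00 by plate), with 0.0935% (0.0593 to 0.140) and 0.0315% (0.0127 to 0.0650), whose intervals overlap slightly. The 24 histone features on chromosome 6 held 0.0664% (0.0544 to 0.0801) of the read pairs in deep and 0.0219% (0.0109 to 0.0392) in shallow nuclei, and the 10 on other chromosomes 0.0289% (0.0212 to 0.0384) and 0.0120% (0.00439 to 0.0260). With all read pairs, at least 1 read pair in those of chromosome 6 was present in 30 of 41 deep and 10 of 51 shallow nuclei. After thinning, 11 of 41 deep and 7 of 37 shallow nuclei had a read pair in any histone feature, with 23 and 7 read pairs. H4C16, H2BC5 and H2BC18 were the histone genes seen in most thinned nuclei, with 4, 3 and 2 of them.

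Genes of the respiratory chain had a ratio of 1.84 (0.146%, 0.128 to 0.166, against 0.0797%, 0.0569 to 0.109), with 1.48 in plate 1 and 2.34 in plate 2. After thinning the ratio was 1.38 (1.40 and 1.43 by plate), and the intervals of the classes overlapped. Proteasome subunit genes had a ratio of 1.68 (0.0836%, 0.0701 to 0.0989, against 0.0498%, 0.0322 to 0.0735), and 1.54 and 1.85 by plate. After thinning the ratio was 1.58, and in plate 2 the shares rested on 6 read pairs in each class and were equal. PSMD10, which encodes a chaperone of the proteasome, was seen in 6 of 41 deep and 3 of 37 shallow thinned nuclei. Genes of cytosolic ribosomal proteins (ratio 1.04), the cell cycle and DNA replication (1.03), and AP-1 and stress (1.12) had overlapping intervals in the classes. After thinning their ratios were 1.32, 1.27 and 1.40, about that of the respiratory chain. They rested on 35 against 24, 38 against 27 and 14 against 9 read pairs in deep and shallow nuclei. Few read pairs were left and 14 shallow nuclei were left out, so no order was read among these lists. Of these, JUN was seen in 5 deep and 2 shallow thinned nuclei, MCM3, a subunit of the replicative helicase, in 3 and 3, and RPL37 in 3 and 2. The zinc finger genes of chromosome 19, mostly KRAB repressors, went the other way with 0.129% (0.112 to 0.148) and 0.179% (0.144 to 0.220), which overlap, and a ratio of 0.720. After thinning, deep and shallow nuclei were nearly alike in plate 1, with 0.136% and 0.139%. In plate 2 they had 0.132% and 0.228%. A single shallow nucleus reached 1.98% for this list, while the median shallow nucleus had 0.0611%.

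Genes of blood identity had few features and few read pairs. Of 15 genes of hematopoietic identity, 3 had a feature at a start, namely GFI1, KIT and IKZF1. Of the cytosolic ribosomal protein genes 50 of 79 had one, and of the olfactory receptor genes 16 of 400. The 4 features of the blood genes, 0.00494% of all features, held 9 read pairs (0.00553%) in deep and 1 (0.00199%) in shallow nuclei. After thinning they were seen in 3 of 41 deep and 0 of 37 shallow nuclei. Olfactory receptor genes, silent outside the nose, held 14 and 3 read pairs over 17 features, 0.0210% of all features. No ratio was read from either list.

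For the 5 features seen in most thinned nuclei, the numbers of nuclei are given as a description. After thinning, the feature at chr1:633528-634528, with the starts of MTATP6P1, MTATP8P1 and MTCO3P12, nuclear copies of mitochondrial genes, was seen in 20 of 41 deep and 21 of 37 shallow nuclei. It aligned to the mitochondrial genome over 1001 bases with 98.3% identity. The 8 features like the mitochondrial genome together held 0.197% (0.176 to 0.220) of the read pairs of deep and 0.207% (0.169 to 0.251) of those of shallow nuclei, and the intervals overlapped. The intergenic feature on chromosome 3 was seen in 20 of 41 and 18 of 37. The intergenic feature at chr21:6371541-6372541, with no annotated gene, was seen in 9 of 41 deep and 12 of 37 shallow nuclei. By plate it was seen in 5 of 22 and 4 of 18 in plate 1 and in 4 of 19 and 8 of 19 in plate 2. It held 10 thinned read pairs in deep and 19 in shallow nuclei. The intronic feature on chromosome X was seen in 8 of 41 and 6 of 37, and the promoter of ODR4 and TPR, which encodes a nuclear pore protein, in 6 of 41 and 8 of 37.

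Single features gave few read pairs. Only 3 features had 20 or more thinned read pairs over both classes, and 0 (0%) of them were 2-fold higher in deep nuclei and 0 (0%) 2-fold higher in shallow nuclei in both plates. Without thinning, an alternative chosen after seeing the data, 426 features had 20 or more read pairs, and 68.1% of them were promoters. Of these, 14 (3.29%) had a rate per read pair at least 2-fold higher in deep nuclei in both plates, 12 of them promoters, and 11 (2.58%) were at least 2-fold higher in shallow nuclei, 8 of them promoters. Between plates, 19 features were 2-fold higher in plate 2 and 9 in plate 1 in both classes, so the classes differed by this measure in 25 features and the plates in 28. Of the 14, 11 passed the minimum of 20 read pairs through the deep nuclei alone, so the filter itself favored features high in deep nuclei, and the values are a description. At the promoter of UBA6, an enzyme that activates ubiquitin, deep nuclei had 25 read pairs in 14 nuclei, 13 in plate 1 and 12 in plate 2, and shallow nuclei had 0. At the promoter of GPT2, an alanine transaminase, the values were 22 and 0, and at that of APAF1, which forms the apoptosome, 21 and 1. Deep nuclei held 162719 read pairs in all and shallow nuclei 50188. The ratio of the rates, deep to shallow, was 6.48 for APAF1. The named features were picked by the same counts that give their ratios, so no interval is given for them. Of the 11 features higher in shallow nuclei, 0 reached 20 read pairs in shallow nuclei alone. The promoter of SMC2, a condensin subunit, had 8 read pairs in deep and 12 in shallow nuclei, a ratio of deep to shallow of 0.206. DUSP23 had 14 and 11, a ratio of 0.393.

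After thinning to 600 read pairs, which dropped a larger part of a deep nucleus, shallow nuclei had more of their read pairs in the same features. A deep nucleus of plate 1 then had 541 to 590 detected features, with a median of 581, and a shallow one 437 to 574, with a median of 561.5. In plate 2 the ranges were 563 to 586 (median 577) and 517 to 577 (median 556). The share of detected features with 2 or more read pairs ran in plate 1 from 1.69% through 3.18% to 9.24% in deep and from 3.83% through 6.05% to 18.8% in shallow nuclei. In plate 2 it ran from 2.39% through 3.81% to 5.86% and from 3.47% through 6.82% to 12.1%. Only 1 deep nucleus of plate 1 and 0 of plate 2 lay above the median of the shallow nuclei of its plate. The median of deep minus that of shallow nuclei was -2.87 points in plate 1 and -3.01 points in plate 2.

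The order of the classes depended on the thinning. Without it, repeated features were 16.4% of detected features in the median deep and 10.6% in the median shallow nucleus. Thinning kept 7.72% to 29.6% of the read pairs of a deep nucleus and 32.6% to 97.9% of those of a shallow nucleus, so a larger part of a deep nucleus was dropped. Within the deep nuclei alone, rho between total and the thinned share was -0.63 in plate 1 (n = 22) and -0.71 in plate 2 (n = 19). Its part in the difference was not tested. Shallow nucleus 17 of plate 1 was highest, with 613 read pairs in 445 features, and its best partner held 40.5% of its two-nucleus features.

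**Figure D4:**
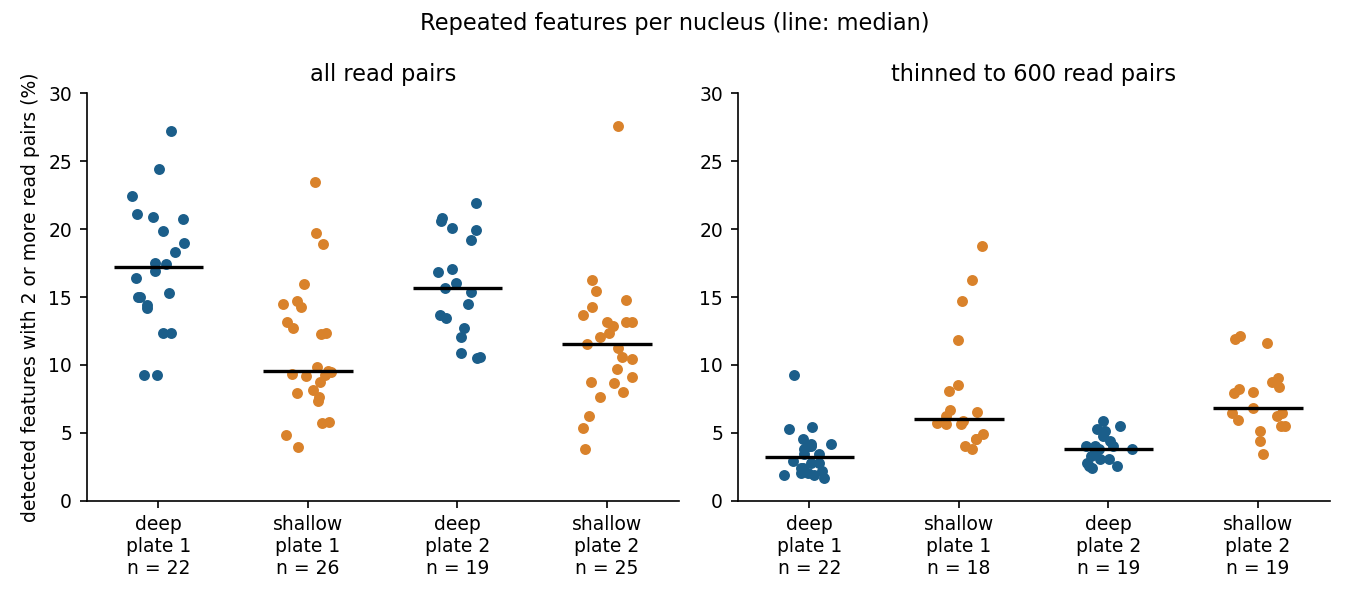
Share of detected features with 2 or more read pairs in each nucleus (points) and the median (line), by class and plate, with all read pairs (left) and after thinning to 600 (right). With all read pairs the median deep nucleus is higher (16.4% against 10.6% over both plates), and after thinning the shallow nuclei are higher (3.46% against 6.47%).

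Chromosomes did not separate the classes. Of 23 chromosomes, 10 had a difference of the same sign in both plates, and for 0 of them did it exceed the difference between plates in each class. After thinning 11 had the same sign and 2 exceeded it. Among the chromosomes with the same sign in both plates, chromosome 2 was highest in deep against shallow nuclei, with 9.17% against 8.14% in plate 1 and 10.3% against 9.59% in plate 2, differences of 1.03 and 0.710 points beside 1.14 and 1.46 between plates. Chromosomes 6 (0.498 points over both plates) and 3 (0.430) followed. The difference turned to -0.447 and -0.937 points for chromosome 6 with classes parted at 1000 and 4000 read pairs and to -0.101 for chromosome 3 after thinning. Chromosome X was lower in deep nuclei, with 4.32% against 5.03% in plate 1 and 4.59% against 5.80% in plate 2, differences of -0.711 and -1.21 points. The plates differed by 0.264 in deep and 0.765 in shallow nuclei. After thinning, the chromosome X differences were -0.0766 points in plate 1 and -1.24 in plate 2. Over features outside promoters alone, the thinned differences were 0.264 and -1.18 points. In the thinned nuclei the lower share in deep nuclei thus rested on plate 2. Chromosomes 10 (-0.581 points) and 11 (-0.211) followed among those of the same sign, and their differences took the other sign under other settings. Counting intervals were far narrower than the spread of nuclei. For chromosome X they were 4.33% to 4.53% in deep and 5.22% to 5.62% in shallow nuclei, whereas single nuclei of plate 1 ran from 0.930% to 9.52% and from 1.39% to 11.1%.

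Within each class, single nuclei differed by more than counting error in which chromosomes their read pairs came from. At 600 read pairs per nucleus, the standard deviation of a chromosome's read pairs over nuclei was compared with the one that random draws from the pooled shares give. The ratio had a median over 23 chromosomes of 2.65 in deep and 2.45 in shallow nuclei of plate 1, and of 2.13 and 2.78 in plate 2. It was above 1 for all 23 chromosomes, except for 22 of 23 in the deep nuclei of plate 2. Neither class had the wider spread in both plates.

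Single nuclei, picked after their values were seen, showed how far this went. In deep nucleus 35 of plate 1, chromosome 9 held 796 of 5355 read pairs (14.9%, 13.9 to 15.8), beside 4.12% in its class and plate. Deep nucleus 36 of plate 1 had 21.5% (20.0 to 23.1) on chromosome 5 beside 6.51%, and deep nucleus 71 of plate 2 had 28.2% (26.8 to 29.6) on chromosome 2 beside 10.3%. Shallow nucleus 31 of plate 1 had 22.2% (20.1 to 24.4) on chromosome 5 beside 7.30%, and shallow nucleus 65 of plate 2 had 26.7% (22.3 to 31.4) on chromosome 6 beside 6.85%. Nucleus 65 held only 382 read pairs in 228 features, too few to rate any window of 10 Mb. Repeated features were 19.9%, 27.2% and 21.9% of detected features in deep nuclei 35, 36 and 71, beside a deep median of 16.4%. They were 23.5% and 27.6% in shallow nuclei 31 and 65, beside a shallow median of 10.6%. The excess was not always spread along the chromosome. In nucleus 71 of plate 2, 22 of 23 windows of 10 Mb on chromosome 2 were above the share of the class, with a median ratio of 2.51. In nucleus 35 of plate 1, 5 of 10 windows on chromosome 9 were, and the highest reached 7.84.

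Neighbouring stretches of a chromosome were high or low in the same nuclei. Over windows of 5 Mb, the deviation of a nucleus from the pooled share had a mean correlation between adjacent windows of 0.278 in deep and 0.191 in shallow nuclei of plate 1, and of 0.182 and 0.193 in plate 2, after thinning. At 40 Mb it was 0.141 and 0.0875 in plate 1 and 0.138 and 0.104 in plate 2. Between windows of different chromosomes it lay between -0.00970 and -0.00472. These means describe pairs of windows over 18 to 22 nuclei that share wells, plates and depth, and no test was made on them.

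**Figure D5:**
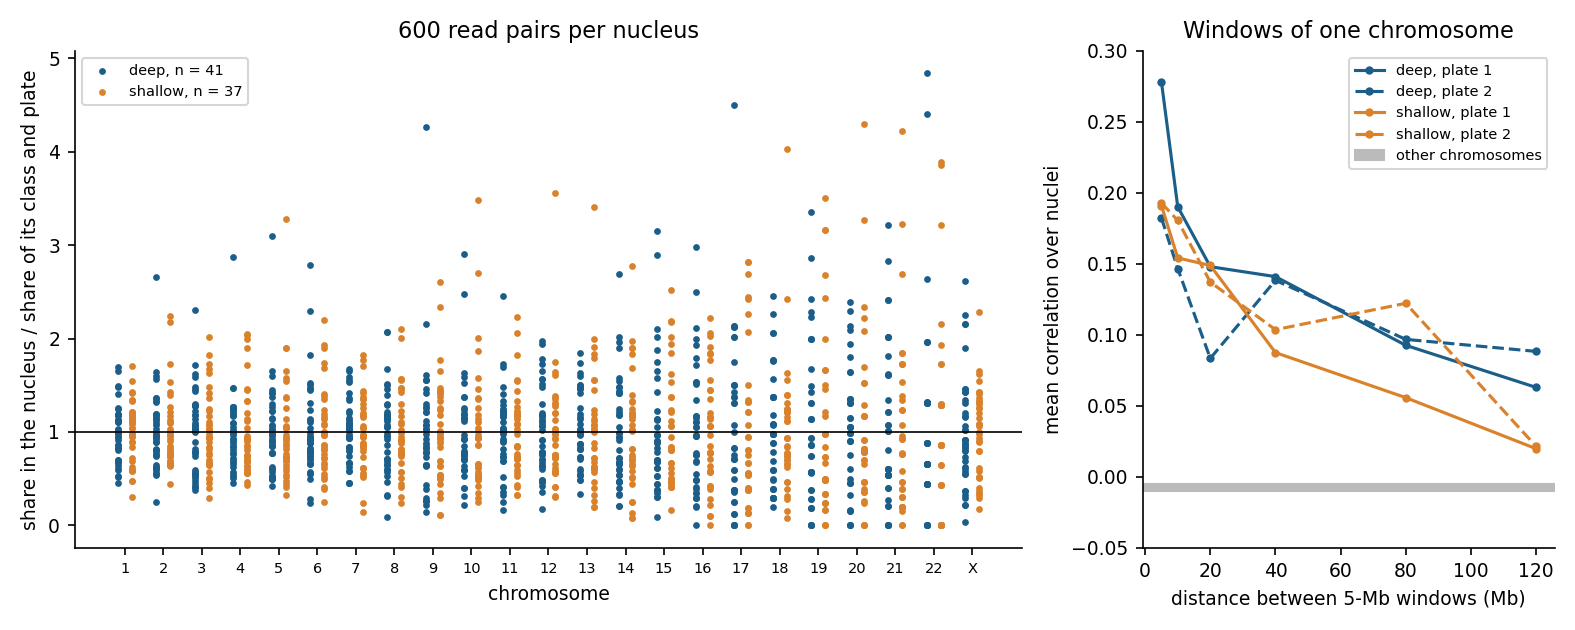
Left, share of each chromosome in a nucleus thinned to 600 read pairs divided by the pooled share of its class and plate (points, 1 for the pooled share), for 41 deep and 37 shallow nuclei. Right, mean correlation over nuclei of 5-Mb windows against their distance on 1 chromosome, by class and plate, which falls from between 0.182 and 0.278 for adjacent windows, and for windows of different chromosomes (gray band) lies just under 0.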

How the data were processed

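The authors trimmed the reads with fastp, took out CASB barcode reads, aligned the rest to hg38 with bowtie2 and removed mitochondrial, low-quality and duplicated reads in each cell. Peaks came from 1 MACS2 run over all cells, and each summit was widened to 1001 bp. The deposited table holds unnormalized counts that the authors made with featureCounts, 1 column per nucleus. A read pair adds to all features that it touches, and 13367 features (16.5%) overlap another. Every count column was matched to 1 nucleus by its title, and 0 were left over. The first number of a title was taken as the plate.

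Features were annotated with GENCODE 44 on GRCh38. A promoter feature contains a transcription start, and the others were classed by their centre. Mitochondria-like features were found with blastn 2.17.0 (90% identity over 500 bp or more). Nuclei were thinned without replacement to 600 read pairs with seed 1. All 41 deep nuclei and 37 of 51 shallow nuclei could be thinned. In the fold comparison 0.5 was added to each count. The text names the 5 features seen in most thinned nuclei, some of the 10 unthinned features with the largest ratio in each direction, 3 chromosomes each way and up to 3 genes of each list. Members and lists were chosen with earlier results of these data known. No doublet caller was run, as nuclei were sorted 1 per well. The fold comparison without thinning was tried on simulated counts, drawn independently, at the depth of the data and at a larger depth. Such counts lack the repeated read pairs of the data. The fold comparison on thinned counts was not simulated, and the thinning was checked on the counts of the nuclei themselves. Alternatives covered the thinning depth and seed, the limits of the classes, the unit, the promoter definition and each plate alone. Totals of at most 7767 read pairs limit every value to a sparse sample of the open sites of a nucleus. The tools were SciPy 1.17.1, NumPy 2.4.6, pysam 0.24.0, pandas 2.3.3 and matplotlib 3.10.9 under Python 3.11.15.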

Additional observations from a re-analysis of the deposited data

Results flagged for a closer look

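The 28 lowest wells, with 20 to 315 read pairs, entered no comparison between the classes, and they carried a signal above that between plates. Over features seen in exactly 2 of all nuclei, such a well shared 2.53 features with the well of the next number and 2.40 with the well at the same position of the next group of 12. It shared 0.0153 with a well elsewhere on its plate and 0.0195 with a well elsewhere on the other plate. The best partner of 27 of the 28 wells was a deep nucleus. In plate 1, the well numbered 24 held 39 read pairs, and 9 of its 12 two-nucleus features were also in the well numbered 36, which held 2759. The cause was not tested.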

How the results depend on the processing

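The deep minus shallow difference kept its sign for promoter, intronic and intergenic shares, detected features and mitochondria-like shares under every alternative run. The promoter difference, 4.47 points over both plates, was 3.85 by the median over nuclei, 3.78 and 3.69 after thinning to 600 read pairs and to the lowest shallow total, 3.23 with the classes parted at 1000 read pairs, 3.07 over detected features, 3.44 over features seen in 5 or more nuclei and 4.94 in plate 1 alone. The intronic difference, -2.33, was -1.15 with classes parted at 1000, -1.17 over detected features, -1.51 over recurrent features and -2.87 in plate 1. The intergenic difference, -2.14, was -0.857 by the median over nuclei, -1.61 after thinning to 600 and -2.97 with classes parted at 4000. Leaving out nuclei with 25% or more of their two-nucleus features in 1 partner gave 4.56, -2.61 and -2.01 for the 3 shares. Median detected features at equal depth differed by 21, by 24 with another seed, and by 13 and 46.5 at the lowest shallow total and at 1000 read pairs. Repeated features differed by -3.01 points, by -2.75 with another seed, -3.90 at 1000 read pairs and -2.87 in plate 1, and took the other sign without thinning (5.88).

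The share in features of the other plate differed by -0.169 points and took the other sign at the lowest shallow total (0.361) and at 1000 read pairs (0.696), without overlapping features (0.359), in plate 1 (0.214) and with 2 nuclei as the minimum (1.90). The chromosome differences changed sign for chromosome 10 with classes parted at 1000 (0.107) and by the median over nuclei (0.144), for chromosome 11 after thinning (0.216), at 1000 (0.496) and by the median (0.623), for chromosome 3 after thinning (-0.101) and for chromosome 6 at 1000 (-0.447) and 4000 (-0.937). Features 2-fold apart numbered 0, 4 with 10 or more thinned read pairs and 25 without thinning. The cause of these changes was not tested. The alternatives on partners, on the median for chromosomes, and without thinning were chosen after seeing the data. No paired analysis was possible because a number holds 1 nucleus of a plate, deep or shallow, so the classes share no numbers within a plate. Between plates, a well of the same group or position shared 0.350 features with a deep and 0.105 with a shallow nucleus, and other wells 0.427 and 0.104.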
